A study of Mus musculus with 30 samples.

Results

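A set of 10 genes widely used to mark monocytes and macrophages was followed in 2 mouse blood progenitor lines that carried an empty vector, STAT3 or STAT3 Y640F. The 10 genes, of 50686 listed in each library, were Cd68, Itgam, Itgax, Adgre1, F13a1, Bst1, Mpeg1, Clec5a, Lyz2 and Mrc1, taken by name from a list and each matched to a single gene ID. The lines were HPC7 (strain label 129SV) and HPCLSK (strain label C57BL/6N), both labelled as haematopoietic stem and progenitor cells. Both are progenitor lines immortalised with the transcription factor Lhx2 and kept in stem cell factor. Each line had 3 groups of 3 RNA libraries, with an empty vector named in the labels after its dsRed marker, with STAT3, or with STAT3 carrying the Y640F substitution (Y640F below), which makes 6 groups and 18 libraries. No treatment is given for any group, and every group, controls included, carries a vector in an immortalised line. Iscove's medium supplemented with stem cell factor was the culture medium, with agarose-coated plates for HPCLSK. The series text calls the replicates technical, so that the p-values below measure only the spread between these libraries. The 12 chromatin samples of the series were not analysed here.

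Monocytes arise from myeloid progenitors in the bone marrow and enter tissues, where they can become macrophages, cells that engulf and digest particles. Growth and survival of this lineage depend on the receptor encoded by Csf1r and its ligand Csf1, and its gene programme on transcription factors such as PU.1 (Spi1) and Irf8. STAT3 is a transcription factor that is phosphorylated downstream of cytokine receptors, and Y640F is an activating substitution in its SH2 domain. Several of the 10 markers are not restricted to monocytes: neutrophils also carry Itgam, Clec5a, Bst1 and Lyz2, dendritic cells carry Itgax, and megakaryocytes make F13a1.

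The smallest library held 9537258 counts and the largest 38556669. Levels are given as CPM, counts scaled to a common library size. By the raw library totals, 3 counts in 1 library are worth 0.0778 to 0.315 CPM. Stat3, the check of the labels, was in HPC7 at 216 to 236 CPM in the empty vector libraries, at 976 to 1007 CPM under STAT3 and at 654 to 693 CPM under Y640F; the HPCLSK ranges, in the same order, were 341 to 365, 556 to 640 and 1860 to 1949 CPM. STAT3 transcripts were therefore higher in every overexpressing library than in its controls, with STAT3 above Y640F in HPC7 and below it in HPCLSK, where the STAT3 change was 0.76 on the log2 scale. For Y640F against STAT3, the log2 change of Stat3 was -0.56 in HPC7 and 1.67 in HPCLSK. Form and level of STAT3 therefore cannot be told apart in these comparisons. All HPC7 libraries come from 1 sequencing run and all HPCLSK libraries from another, so line, strain and run cannot be told apart. Replicate 1 of HPCLSK Y640F and replicate 1 of the HPCLSK empty vector stand apart from their groups: the chi-square of their counts over its degrees of freedom was 21.2 and 27.0 against the other Y640F replicates (3.30 between those), and 10.6 and 8.06 against the other empty vector replicates (2.49 between those). The 3 HPC7 empty vector libraries gave 10.3 to 20.2 among themselves. Summed over 15 stem and progenitor markers, levels were between 3064 and 5943 CPM in all libraries, and Kit, the stem cell factor receptor, had group means between 259 CPM (HPCLSK Y640F) and 1573 CPM (HPC7 Y640F).

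The summed level of the 10 markers was low in HPC7, higher in HPCLSK and highest in HPCLSK with Y640F, while Itgax and Bst1 were not called between the lines with the empty vector. The sum was 33.0 to 40.7 CPM in the 9 HPC7 libraries of all 3 groups. In HPCLSK it was 884 to 1172 CPM with the empty vector, 1234 to 2142 with STAT3 and 6834 to 9451 with Y640F, so that the 3 HPCLSK groups did not overlap. Lyz2 makes up most of the HPCLSK sums. In bulk RNA, fewer cells of a type and less RNA per cell cannot be told apart. On the scale of CPM per kilobase of exon, which allows genes to be compared, Lyz2 led in HPCLSK Y640F with a mean of 4590. F13a1 (128), Cd68 (93.3), Clec5a (79.5), Itgam (63.3) and Mpeg1 (62.9) followed, then Adgre1 (36.1), Itgax (9.19), Bst1 (7.30) and Mrc1 (0.29). With the empty vector in HPC7 the same scale gave 7.78 for Lyz2, 6.57 for Cd68, 1.5 for Itgax, 1.09 for Clec5a and less than that for the other 6 genes. HPCLSK Y640F had the highest group mean for each of the 10 genes. Its libraries overlapped those of the group with the next highest mean for Itgax and Mrc1. In HPCLSK, 65.9% of all tested genes did not overlap between Y640F and the empty vector, 61.5% between Y640F and STAT3, and 37.1% between STAT3 and the empty vector. The HPC7 shares, in the same order, were 60.9%, 65.3% and 55.7%.

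**Figure D1:**
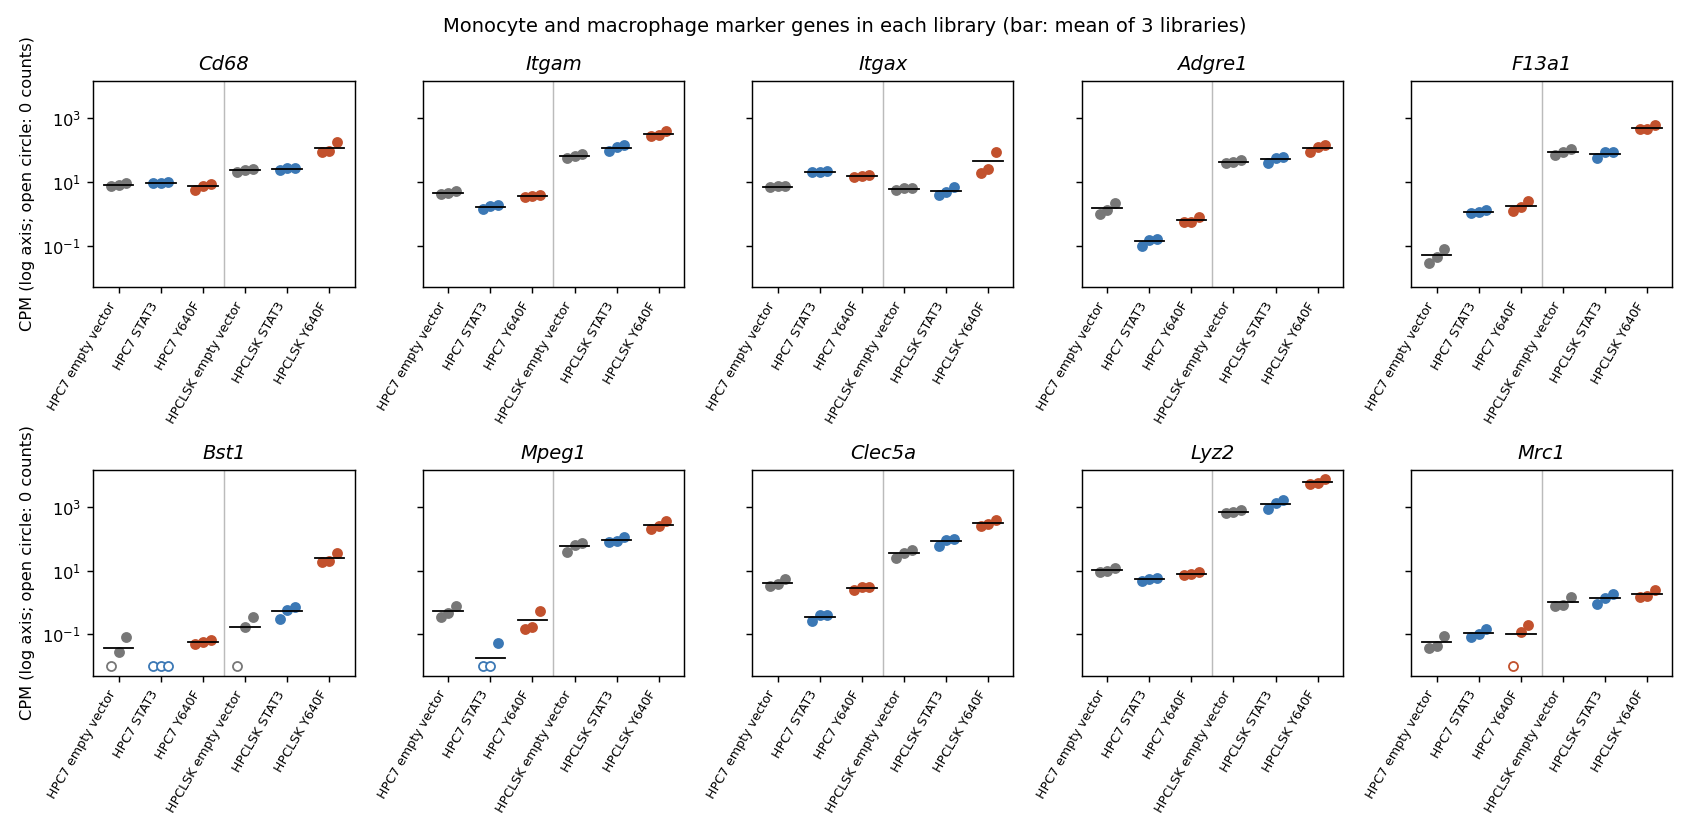
CPM of each of the 10 marker genes (log axis) in the 18 libraries, with the 3 vector groups of HPC7 left of the grey line and those of HPCLSK right of it; points are libraries, bars are means of 3 libraries and open circles are libraries with 0 counts. HPCLSK Y640F has the highest mean in every panel, and most genes lie higher in HPCLSK than in HPC7, with Itgax as the clearest exception.

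With the empty vector, 8 of the 10 markers were higher in HPCLSK than in HPC7 and 0 were lower, against 22.8% of 13891 tested genes higher and 13.6% lower. Called means a Benjamini-Hochberg adjusted p below 0.05 in edgeR's quasi-likelihood test together with a change of 2-fold or more. The median log2 difference of the 10 was 3.90, and that of all tested genes 0.04. Itgax, which encodes the integrin alpha chain CD11c, was the gene with a negative difference, -0.23 ± 0.45 (SE, adjusted p = 0.64). Bst1 rested on 11 counts in HPCLSK and 3 in HPC7, a ratio of 5.77 (95% counting interval 1.52 to 32.2, adjusted p = 0.059), and it was called without HPCLSK empty vector replicate 1 (adjusted p = 0.022) or without HPC7 empty vector replicate 2 (adjusted p = 0.045). Without HPCLSK empty vector replicate 2 the log2 difference of Bst1 went from 2.36 to 1.31 (adjusted p = 0.43). Without the pair of HPCLSK libraries that stand apart 9 markers were called, as in DESeq2. F13a1 showed the widest gap, 86.6 CPM on average in HPCLSK against 4 counts in all over the 3 HPC7 libraries (log2 difference 10.68 ± 0.41).

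Within HPC7, STAT3 split the markers: 2 of the 8 tested genes rose and 4 fell, against 1.81% of 12683 tested genes higher and 5.41% lower. Itgax and F13a1 rose, while Itgam, Adgre1, Mpeg1 and Clec5a fell. Bst1 and Mrc1 had too few counts in HPC7 to be tested. The median log2 change of the 8 was -1.19, and that of all tested genes 0. With Y640F in HPC7, Itgax and F13a1 rose again and Adgre1 fell, against 4.54% of tested genes higher and 3.64% lower, and the median log2 change was -0.31. Y640F against STAT3 in HPC7 gave 4 genes higher (Itgam, Adgre1, Mpeg1 and Clec5a) and 0 lower, against 6.17% and 1.73% of tested genes, with a median of 0.89. Cd68 and Itgax were lower there at an unadjusted p under 0.05 and also by the adjusted p (0.038 and 0.00028). Their log2 changes of -0.37 and -0.39 were under the fold set, and DESeq2 also called 0 lower. The 3 comparisons of a line share libraries with each other, so their counts are not independent.

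Within HPCLSK, Y640F raised 9 of the 10 markers against the empty vector and lowered 0, against 9.62% of 12552 tested genes higher and 6.57% lower. The median log2 change of the 10 was 2.44, and that of all tested genes -0.01. Mrc1, at 0.92 ± 0.34 (adjusted p = 0.036), was the gene under the fold set. Without replicate 1 of both groups, all 10 were called, with changes from 1.18 (Adgre1) to 6.05 (Bst1). Y640F against STAT3 gave the same count, 9 higher and 0 lower, against 8.11% and 6.09% of tested genes, with a median of 2.00; 8 were called without the pair of libraries that stand apart. STAT3 against the empty vector gave 1 gene higher, Clec5a, and 0 lower, against 2.80% and 1.79% of tested genes, with a median of 0.59. Without HPCLSK STAT3 replicate 3, which had the lowest total of all libraries, 3 genes were called. In none of the 3 HPCLSK comparisons, nor between the lines with the empty vector, was any marker lower at an unadjusted p under 0.05 in edgeR or called lower by DESeq2 (0 of 10 in each).

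**Figure D2:**
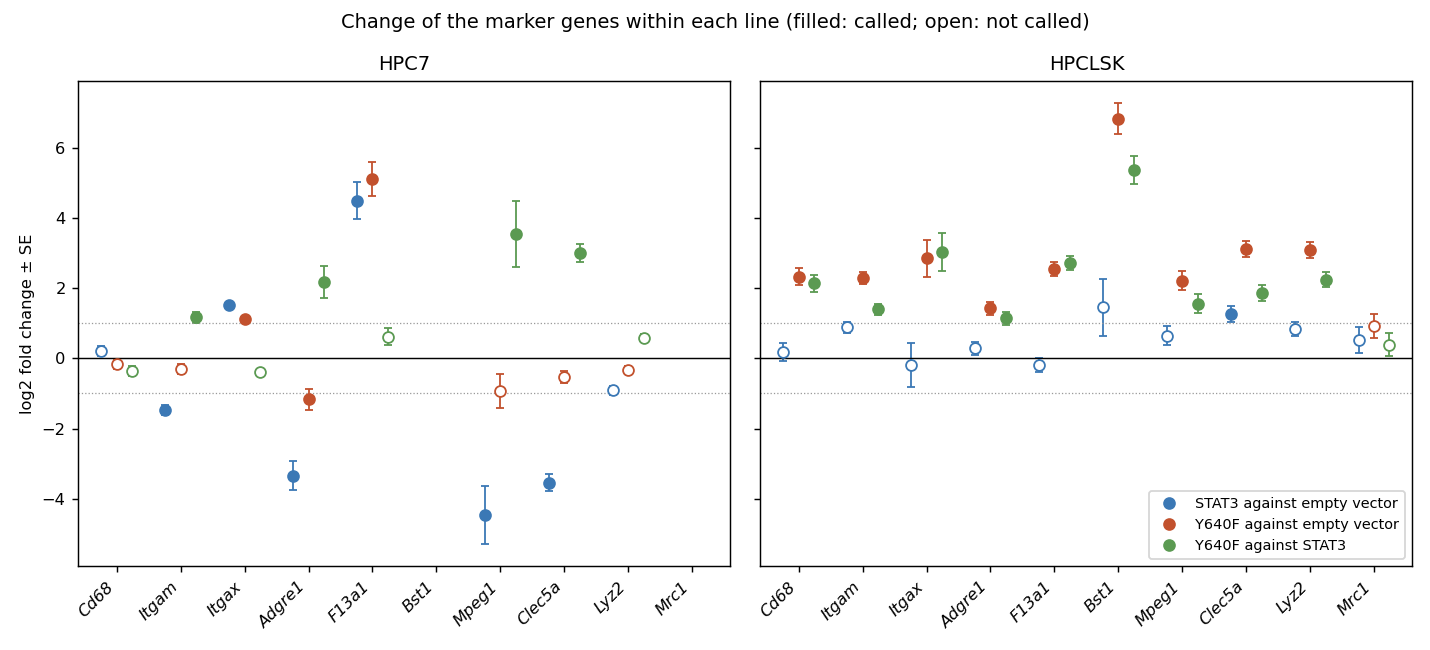
Fitted log2 fold changes (vertical axis, with SE) of the marker genes in HPC7 (left) and HPCLSK (right) for STAT3 against the empty vector, Y640F against the empty vector and Y640F against STAT3; filled points are called, open points are not, and dotted lines mark a log2 change of 1 in each direction. In HPC7 STAT3 lies far below 0 for Adgre1, Mpeg1 and Clec5a and above it for Itgax and F13a1, while in HPCLSK the Y640F points lie above 0 for every gene. Bst1 and Mrc1 were not tested in HPC7.

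The integrin alpha chains come first among the surface receptors. Itgam (chromosome 7, 128062640 to 128118491, GRCm38, plus strand) encodes CD11b, which pairs with the beta-2 chain to form complement receptor 3. The HPC7 levels were 4.52, 5.09 and 4.11 CPM with the empty vector, 1.83, 1.40 and 1.72 under STAT3, and 3.31, 3.86 and 3.73 under Y640F. The 3 groups did not overlap, with the empty vector highest and STAT3 lowest. Pair by pair, 55.7% to 65.3% of all tested genes did not overlap between HPC7 groups. STAT3 lowered Itgam by a log2 change of -1.47 ± 0.15 (adjusted p = 2.5e-06), and Y640F gave -0.30 ± 0.13 (adjusted p = 0.066). The HPCLSK levels were 56.5, 72.6 and 65.9 CPM with the empty vector, 142, 123 and 95 under STAT3, and 388, 286 and 280 under Y640F. Here the order ran from the empty vector over STAT3 to Y640F, again with no overlap. The log2 change was 2.29 ± 0.16 with Y640F (adjusted p = 1.3e-06) and 0.89 ± 0.16 with STAT3 (adjusted p = 0.0045), the latter under the fold set and 1.02 without HPCLSK STAT3 replicate 3.

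Itgax (chromosome 7, 128129547 to 128150657, plus strand), a neighbour of Itgam, encodes CD11c of complement receptor 4. Itgax in HPC7 was at 7.37, 7.23 and 6.99 CPM with the empty vector, 21.7, 20.4 and 20 under STAT3, and 15.7, 14.5 and 16.5 under Y640F. The groups did not overlap, and the log2 changes were 1.52 ± 0.08 with STAT3 (adjusted p = 3.8e-09) and 1.13 ± 0.08 with Y640F (adjusted p = 4.6e-08). Itgam and Itgax thus moved in opposite directions with STAT3 in HPC7. In HPCLSK Itgax was at 6.47, 5.57 and 6.42 CPM with the empty vector, 4.72, 6.70 and 3.92 under STAT3, and 88.5, 18.7 and 25.2 under Y640F. Replicate 1 of Y640F was by far the highest, and the log2 change of 2.85 ± 0.53 (adjusted p = 0.00088) was 1.84 without it (adjusted p = 7.8e-06). Against STAT3 the change of 3.04 was 2.02 without that library. The partner chain Itgb2 was at 179 to 221 CPM with the empty vector, 252 to 343 with STAT3 and 655 to 1062 with Y640F in HPCLSK, a log2 change of 2.00 ± 0.18 with Y640F (adjusted p = 7e-06). In HPC7 Itgb2 stayed between 88.4 and 114 CPM and was not called in any of the 3 comparisons. Of 5 listed beta-2 integrin chains and ligands other than these markers, 2 rose and 1 fell with Y640F in HPCLSK. Over all tested genes 9.62% were higher and 6.57% lower. Itgad, a further alpha chain, fell from 3.38 to 0.214 CPM (log2 change -3.91 ± 0.25, adjusted p = 6.6e-07), and Icam1 rose by 1.25 ± 0.20 (adjusted p = 0.00031).

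Clec5a (chromosome 6, 40574894 to 40585821, minus strand) encodes a C-type lectin receptor of myeloid cells that signals through the adaptor DAP12. It was the member whose pattern over the 6 group means lay nearest to that of Itgam, at a root mean square distance of 0.65 between mean-centred log2 CPM. Levels in HPC7 were 3.36, 5.39 and 3.79 CPM with the empty vector, 0.396, 0.269 and 0.404 under STAT3, and 3.01, 2.99 and 2.53 under Y640F. STAT3 lowered it by a log2 change of -3.54 ± 0.25 (adjusted p = 8.1e-08), and its 3 libraries lay far below all others. Those in HPCLSK were 25.4, 43.3 and 36.3 CPM with the empty vector, 91.4, 100 and 58.5 under STAT3, and 378, 282 and 256 under Y640F. It was the marker that rose with STAT3 in HPCLSK (1.26 ± 0.23, adjusted p = 0.0046), and it rose further with Y640F (3.12 ± 0.23, adjusted p = 1.8e-06). In an alternative test against a fold of 1.5 the STAT3 change was not called (adjusted p = 0.057).

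The 250 bases before the start of Itgam and of Clec5a are shown because these 2 genes had the nearest patterns of all pairs of markers over the 6 groups. They are RefSeq promoter entries on GRCm38.p6, written 5′ to 3′ on the gene's strand, with the letters GAGGAA or their reverse complement TTCCTC, a core that PU.1 can bind, in capitals.
Itgam, chr7:128062390-128062639, plus strand: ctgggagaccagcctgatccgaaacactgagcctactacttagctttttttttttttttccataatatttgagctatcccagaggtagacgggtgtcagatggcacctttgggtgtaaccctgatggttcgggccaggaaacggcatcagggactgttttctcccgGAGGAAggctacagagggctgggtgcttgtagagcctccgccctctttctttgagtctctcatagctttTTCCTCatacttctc
Clec5a, chr6:40585806-40586055, minus strand: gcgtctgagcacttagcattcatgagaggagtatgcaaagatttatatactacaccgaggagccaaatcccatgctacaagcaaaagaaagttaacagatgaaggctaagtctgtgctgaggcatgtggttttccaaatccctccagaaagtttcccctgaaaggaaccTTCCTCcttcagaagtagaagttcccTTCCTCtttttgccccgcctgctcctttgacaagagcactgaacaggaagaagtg

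Both windows held 2 matches. Entries were found for 8 of the 10 markers, 9 entries in all since F13a1 has 2, and 5 of the 9 held GAGGAA on either strand (Cd68, Itgam, 1 entry of F13a1, Clec5a and Mrc1), against 23.3% of all 32851 mouse entries of this length. The letters TTCNNNGAA, a STAT element that reads the same on both strands, were in 0 of the 9 entries, against 7.0% of all entries, so that no match of it overlapped the other motif. These counts describe letters in these windows and do not show binding.

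Adgre1 (chromosome 17, 57358686 to 57483529, plus strand) encodes F4/80, an adhesion receptor used to define mouse macrophages. Adgre1 in HPC7 was at 2.16, 1.28 and 0.991 CPM with the empty vector, 0.152, 0.161 and 0.101 under STAT3, and 0.819, 0.568 and 0.550 under Y640F. It fell with STAT3 (-3.34 ± 0.40, adjusted p = 1.4e-05) and with Y640F (-1.17 ± 0.30, adjusted p = 0.0045). The latter change was -0.78 and under the fold set without HPC7 empty vector replicate 1, the highest of its group. Adgre1 in HPCLSK was at 39.5, 49.3 and 41.9 CPM with the empty vector, 55.1, 62.4 and 39.8 under STAT3, and 140, 124 and 87.1 under Y640F. The STAT3 and empty vector libraries overlapped, and Y640F lay above both, with a log2 change of 1.43 ± 0.19 against the empty vector (adjusted p = 8e-05). Against STAT3 it was 1.14 ± 0.19 (adjusted p = 0.00046), and 0.97 without HPCLSK STAT3 replicate 3 and 0.96 without HPCLSK Y640F replicate 1.

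Bst1 (chromosome 5, 43818885 to 43843986, plus strand) encodes CD157, a cell-surface enzyme of myeloid and stromal cells. Outside 1 group it had few counts: 3, 0 and 6 in all in the empty vector, STAT3 and Y640F groups of HPC7, and 11 and 25 counts in the empty vector and STAT3 groups of HPCLSK. With Y640F in HPCLSK it had 1191 counts, at 34.6, 19.4 and 18.6 CPM, while the empty vector libraries were at 0, 0.357 and 0.173 CPM and the STAT3 libraries at 0.570, 0.713 and 0.310. It had the largest log2 change of the 10 markers, 6.83 ± 0.45 (adjusted p = 7.6e-07) against the empty vector and 5.37 ± 0.40 (adjusted p = 2.8e-06) against STAT3. Since the empty vector value rests on 11 counts, it varied with the libraries used: 7.85 without HPCLSK empty vector replicate 2, and 6.05 without the pair of libraries that stand apart.

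Mrc1 (chromosome 2, 14229392 to 14332057, plus strand), the mannose receptor CD206 of tissue macrophages, stayed low everywhere. It had 5, 11 and 12 counts in all in the 3 groups of HPC7. Mrc1 in HPCLSK was at 1.49, 0.847 and 0.752 CPM with the empty vector, 1.87, 1.43 and 0.929 under STAT3, and 1.55, 1.5 and 2.5 under Y640F. Its Y640F change of 0.92 passed the fold set without HPCLSK Y640F replicate 1 (1.03, adjusted p = 0.031), without HPCLSK Y640F replicate 2 (1.03, adjusted p = 0.039) or without HPCLSK empty vector replicate 1 (1.21, adjusted p = 0.015). It was smaller, with an adjusted p above 0.05, without HPCLSK empty vector replicate 2 (0.79, adjusted p = 0.13), HPCLSK empty vector replicate 3 (0.75, adjusted p = 0.13) or HPCLSK Y640F replicate 3 (0.62, adjusted p = 0.17).

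The lysosomal and antimicrobial proteins form the second group. Lyz2 (chromosome 10, 117277331 to 117282321, minus strand) encodes lysozyme M, which cleaves bacterial cell walls. Lyz2 in HPC7 was at 9.84, 11.9 and 9.0 CPM with the empty vector, 5.45, 4.89 and 5.95 under STAT3, and 8.97, 7.08 and 8.03 under Y640F. The STAT3 libraries were the lowest, with a log2 change of -0.91 ± 0.12 (adjusted p = 3.8e-05) that was under the fold set and reached -1.0 without HPC7 empty vector replicate 3. Lyz2 in HPCLSK was at 628, 793 and 714 CPM with the empty vector, 1317, 1624 and 878 under STAT3, and 7419, 5477 and 5227 under Y640F. The 3 groups did not overlap, and the log2 change was 3.09 ± 0.22 with Y640F (adjusted p = 1.2e-06). With STAT3 it was 0.84 ± 0.20 (adjusted p = 0.019), and 1.05 without HPCLSK STAT3 replicate 3. Lyz1, a near-identical neighbour that can share reads with Lyz2, was at 0.231 to 0.491 CPM with the empty vector and 4.06 to 7.01 with Y640F in HPCLSK, so the split of reads between the copies is uncertain but Lyz1 held few of them. Compared without gaps, the 250 bases before the starts of Lyz2 and Lyz1 were identical at 152 positions (60.8%), a count that insertions or deletions would lower.

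Mpeg1 (chromosome 19, 12460779 to 12465284, plus strand) encodes perforin-2, a pore-forming protein of phagocytes. In HPC7 it was at 0.772, 0.342 and 0.466 CPM with the empty vector, 0, 0.0538 and 0 under STAT3, and 0.524, 0.149 and 0.175 under Y640F. The STAT3 group held 2 counts in all against 44 with the empty vector, a ratio of 26.2 (95% counting interval 6.85 to 223, adjusted p = 0.00055), and against 28 with Y640F, a ratio of 13.4 (3.39 to 116, adjusted p = 0.0061). Both counts lay in STAT3 replicate 2, without which the 2 differences were still called (adjusted p = 0.0018 and 0.009), and the latter call was lost in the fit over all 18 libraries (adjusted p = 0.16). Y640F against the empty vector gave -0.93 ± 0.49 (adjusted p = 0.12), and -1.64 without HPC7 Y640F replicate 1 (adjusted p = 0.019). In HPCLSK Mpeg1 was at 37.3, 75.6 and 63.0 CPM with the empty vector, 84.5, 112 and 79.2 under STAT3, and 371, 200 and 248 under Y640F. The groups did not overlap, and Y640F raised it by 2.21 ± 0.27 (adjusted p = 5e-05) while STAT3 gave 0.65 ± 0.27 (adjusted p = 0.15).

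Cd68 (chromosome 11, 69664213 to 69666153, minus strand) encodes a lysosomal membrane glycoprotein of macrophages. It was at 7.46 to 9.32 CPM with the empty vector, 9.15 to 9.81 with STAT3 and 5.47 to 8.76 with Y640F in HPC7, where it was not called in any comparison. Cd68 in HPCLSK was at 21.0, 24.6 and 24.2 CPM with the empty vector, 27.6, 27.4 and 24.1 under STAT3, and 175, 85.7 and 91.0 under Y640F. Replicate 1 of Y640F was the highest, and the log2 change of 2.33 ± 0.24 (adjusted p = 1.6e-05) was 1.91 without it.

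F13a1 (chromosome 13, 36867178 to 37050244, minus strand) encodes the A subunit of coagulation factor XIII, a transglutaminase of monocytes and platelets. In HPC7 it was at 0.0772, 0.0428 and 0.0291 CPM with the empty vector, 1.28, 1.13 and 1.08 under STAT3, and 2.55, 1.20 and 1.60 under Y640F. The total rose from 4 counts to 116 with STAT3 (log2 change 4.49 ± 0.53, adjusted p = 9.9e-06) and 182 with Y640F (5.11 ± 0.48, adjusted p = 9.6e-07). F13a1 in HPCLSK was at 68.9, 106 and 84.5 CPM with the empty vector, 88.8, 84.1 and 54.6 under STAT3, and 456, 456 and 599 under Y640F. STAT3 and empty vector libraries overlapped (-0.18 ± 0.20, adjusted p = 0.60), and Y640F raised F13a1 by 2.54 ± 0.20 (adjusted p = 2.3e-06). The HPC7 libraries with STAT3 or Y640F remained far below every HPCLSK library.

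**Figure D3:**
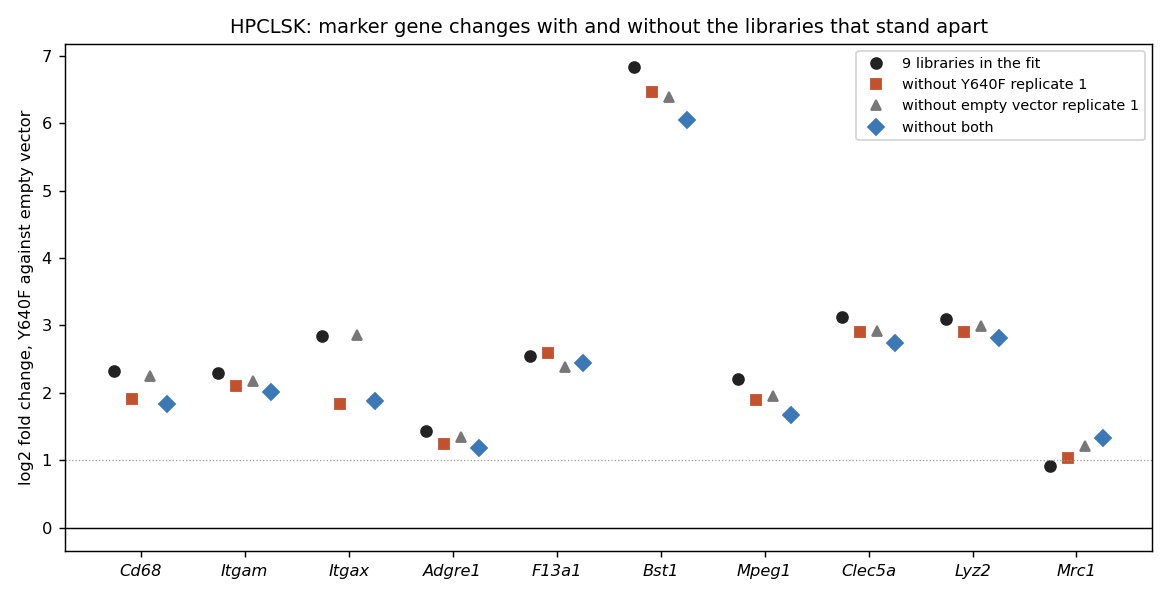
Log2 fold change of each marker gene (vertical axis) for Y640F against the empty vector in HPCLSK, with all 9 libraries of the line, without Y640F replicate 1, without empty vector replicate 1, and without both. Itgax falls from 2.85 to 1.84 without Y640F replicate 1, Adgre1 stays the lowest of the 9 called genes and Bst1 the highest, and Mrc1 crosses the dotted line at 1 when either library is left out.

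The difference between the lines was tested directly, as the log2 change in HPCLSK minus that in HPC7. The Stat3 change itself differed, by -1.39 for STAT3 and 0.85 for Y640F, so line and Stat3 level cannot be told apart. For STAT3, 5 markers had a higher change in HPCLSK (Itgam, Adgre1, Mpeg1, Clec5a and Lyz2) and 2 a lower one (Itgax and F13a1), against 6.16% of 13891 tested genes higher and 2.09% lower. The median difference was 2.05, and 0.01 over all tested genes. Without the pair of libraries that stand apart 8 were called, Bst1 (4.10, adjusted p = 0.041) among them. The Bst1 value rests on 3 counts with the empty vector and 0 with STAT3 in HPC7. Without HPC7 empty vector replicate 2 it was 3.54 and not called (adjusted p = 0.38). The call for Itgax (-1.71 ± 0.63, adjusted p = 0.048) was lost when any of the 12 libraries compared was left out, with adjusted p between 0.053 and 0.098. For Y640F, 8 markers had a higher change in HPCLSK and 0 a lower one, against 7.74% and 7.25% of tested genes, with a median of 2.60 and 0.02 over all tested genes. Without that pair 7 were called, as Itgax (0.77) was then under the fold set. The exceptions were Mrc1 and F13a1, the latter at -2.52 ± 1.13 (adjusted p = 0.074). F13a1 was called lower in DESeq2 (-2.66, adjusted p = 0.0018) and without HPC7 Y640F replicate 2 (-2.72, adjusted p = 0.049), HPCLSK empty vector replicate 1 (-2.66, adjusted p = 0.047) or HPCLSK Y640F replicate 3 (-2.68, adjusted p = 0.040).

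Csf1 and its receptor were followed beside the markers. Csf1 in HPC7 was at 11.8, 9.28 and 6.73 CPM with the empty vector, 1.28, 1.32 and 1.08 under STAT3, and 15.7, 15.7 and 15.0 under Y640F. It fell with STAT3 (-2.89 ± 0.21, adjusted p = 1e-07), as Itgam, Adgre1, Mpeg1 and Clec5a did. In HPCLSK Csf1 was at 20.4, 19.7 and 18.2 CPM with the empty vector, 24, 42.2 and 18.5 under STAT3, and 685, 453 and 414 under Y640F (log2 change 4.75 ± 0.29 with Y640F, adjusted p = 4.5e-07). Csf1r was at 3.41 to 5.63 CPM in HPC7 and was not called there. In HPCLSK it was at 56.3, 84.9 and 69.9 CPM with the empty vector, 64.1, 124 and 34.9 under STAT3, and 1157, 608 and 586 under Y640F (3.48 ± 0.41, adjusted p = 4.3e-05), again highest in Y640F replicate 1. Spi1 was at 64.6 to 82.3 CPM in HPC7, and at 165 to 178, 198 to 221 and 399 to 468 CPM in the empty vector, STAT3 and Y640F groups of HPCLSK (1.33 ± 0.07 with Y640F, adjusted p = 1.8e-07). Irf8 fell with STAT3 in HPCLSK from 14.9 to 24.1 CPM to 5.06 to 13.1 CPM (-1.13 ± 0.27, adjusted p = 0.019), and was at 17.0 to 17.4 CPM with Y640F (-0.19 ± 0.25, adjusted p = 0.55).

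A list of 40 other monocyte and macrophage genes was counted in the same way. With Y640F in HPCLSK, 19 of the 30 tested rose and 0 fell, against 9.62% and 6.57% of all tested genes. The median log2 change of the 30 was 2.34. The largest changes were in Trem2 (5.46 ± 0.33, adjusted p = 4.7e-07), a lipid-sensing receptor of macrophages, Cx3cr1 (4.18 ± 0.35, adjusted p = 3.5e-06), the fractalkine receptor, the chemokine Ccl6 (3.92 ± 0.22, adjusted p = 2.7e-07) and Cd14 (3.88 ± 0.29, adjusted p = 1.8e-06), the lipopolysaccharide co-receptor. With STAT3 in HPCLSK 6 of 30 rose, among them Chil3 (2.42 ± 0.42, adjusted p = 0.0036) and Ly6c2 (2.08 ± 0.30, adjusted p = 0.001), and 2 fell, against 2.80% and 1.79% of all tested genes. In HPC7 STAT3 lowered 8 of 19 tested genes and raised 0, against 5.41% and 1.81% of all tested genes. Among those lowered were Adgre4 (-3.05 ± 0.28, adjusted p = 9.3e-07) and Tlr4 (-1.73 ± 0.11, adjusted p = 3.5e-08). Y640F in HPC7 raised 2 of 19, the chemokine receptor Ccr2 (1.14 ± 0.09, adjusted p = 2.5e-07) and the Fc receptor gamma chain Fcer1g (1.09 ± 0.05, adjusted p = 7.7e-10), and lowered 2, Adgre4 and Plac8. Over all tested genes 4.54% were higher and 3.64% lower in that comparison. Of 15 transcription factors of the lineage, 7 of 13 tested rose with Y640F in HPCLSK, among them Cebpb (3.11 ± 0.24, adjusted p = 2.1e-06), and 0 fell. The shares over all tested genes were 9.62% and 6.57%. In HPC7, 0 of 9 tested rose and 2 fell with Y640F, against 4.54% and 3.64% of all tested genes. With STAT3 in HPC7 1 rose and 2 fell, against 1.81% and 5.41%.

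Markers of other cells moved beside these genes. The summed level of 19 granulocyte markers in HPCLSK was 8448 to 13125 CPM with the empty vector, 15147 to 22840 with STAT3 and 15017 to 19447 with Y640F, and 156 to 724 CPM over the HPC7 libraries. With STAT3 in HPCLSK 10 of 17 tested granulocyte markers rose and 0 fell, against 2.80% and 1.79% of all tested genes. Among those that rose were S100a9 (3.05 ± 0.40, adjusted p = 0.00065) and Ngp (2.66 ± 0.43, adjusted p = 0.0023). With Y640F 8 rose, including the collagenase gene Mmp8 (7.22 ± 0.26, adjusted p = 3.3e-08) and S100a8 (4.52 ± 0.38, adjusted p = 3.7e-06), and 4 fell, against 9.62% and 6.57% of all tested genes. Against STAT3, Y640F raised 6 of the 17 and lowered 5, against 8.11% and 6.09% of all tested genes. Among those lowered were the secondary granule genes Ltf (-4.18 ± 0.60, adjusted p = 0.00021), Ngp (-4.06 ± 0.47, adjusted p = 5e-05) and Camp (-3.92 ± 0.55, adjusted p = 0.00018). In HPC7, 6 of 9 granulocyte markers fell with STAT3 and 0 rose, against 5.41% and 1.81% of all tested genes. With Y640F in HPC7, 5 of the 9 fell and 1 rose, against 3.64% and 4.54%. The summed level of 11 dendritic cell markers in HPCLSK was 11.2 to 12.5 CPM in the empty vector libraries, 2.37 to 6.37 under STAT3 and 5.03 to 6.95 under Y640F, so that the empty vector libraries lay above all others. Most of the empty vector sum was 1 gene, H2-Ab1, at 7.72 CPM against 0.296 under STAT3 and 0.285 under Y640F. Cd74 went the other way with Y640F, from 1.08 to 3.80 CPM (log2 change 1.81 ± 0.40, adjusted p = 0.0027). Of the 3 tested in HPCLSK, 1 rose and 1 fell with Y640F, and 0 rose and 1 fell with STAT3. In HPC7 the summed level was 2.44 to 3.73, 4.74 to 5.30 and 4.24 to 4.68 CPM in the same order, with 4 or 5 of the 11 at 0 counts in each group. Cd209a, Siglech and Xcr1, markers of dendritic cell types, were at 0 counts in all 6 groups, and Ly6g, the neutrophil surface marker, had at most 3 counts in a group. The part of these cells in the marker results was not tested.

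**Figure D4:**
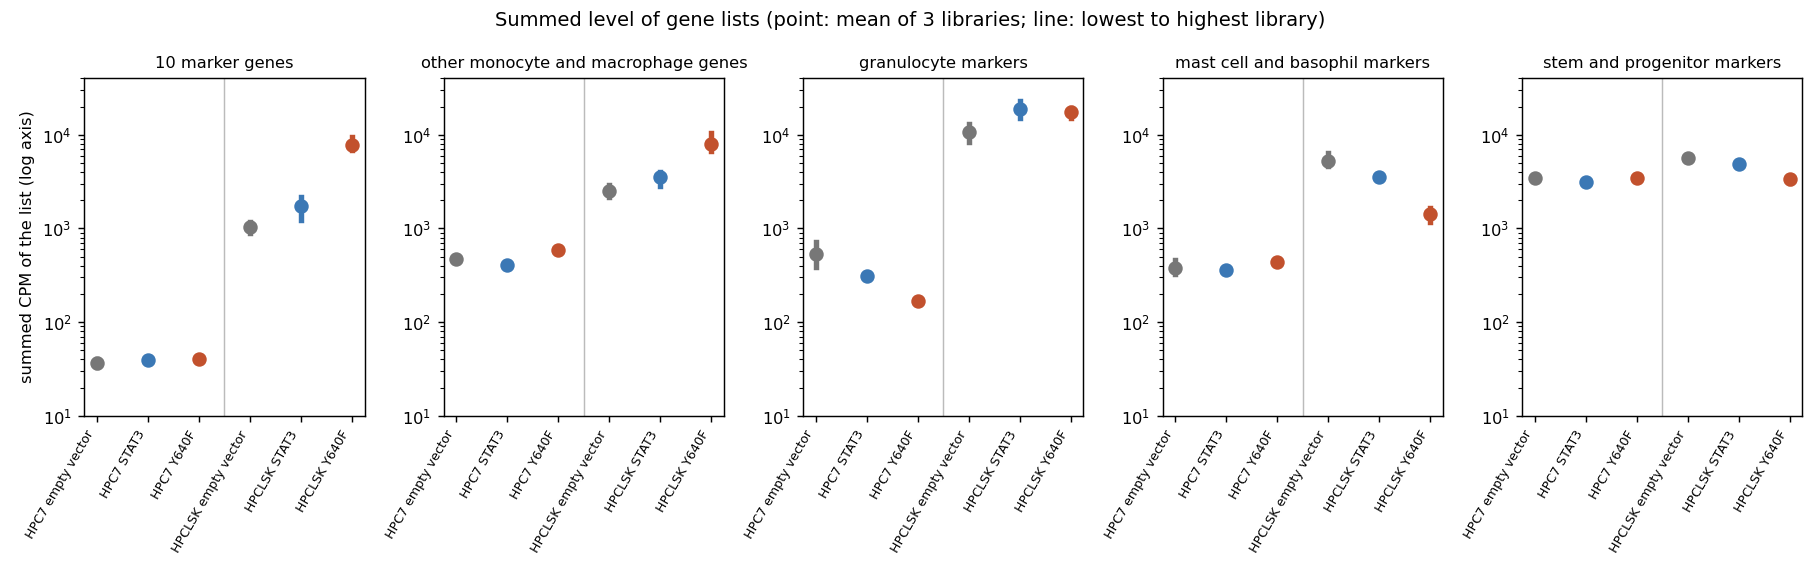
Summed CPM (log axis) of the 10 marker genes and of 4 lists of other genes in the 6 groups; points are means of 3 libraries and lines run from the lowest to the highest library. In HPCLSK the 10 marker genes go from 884 to 1172 CPM with the empty vector to 6834 to 9451 with Y640F. In the same line granulocyte marker sums overlap between STAT3 and Y640F, and mast cell and stem cell sums are lower with Y640F.

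The markers did not share a single pattern over the 6 groups. By the distance given above, the nearest members were Itgam and Clec5a (0.65), Cd68 and Mrc1 (0.68) and Mpeg1 and Lyz2 (0.72), while Itgax and Mpeg1 lay farthest apart (4.70). Among 8149 candidate genes, the gene closest to Itgam was Rab7b (0.14), to Bst1 the complement receptor gene C5ar1 (0.17), to Cd68 Btbd3 (0.20), to Lyz2 Dst (0.23) with Gpnmb next (0.29), to Mpeg1 Gas7 (0.33) and to Mrc1 Plau (0.08). For Itgax it was Capg (0.34), for Adgre1 Plxna1 (0.37) and for Clec5a Lrp1 (0.61). F13a1, which was the marker raised by both proteins in HPC7 from almost no counts, had no gene within 1 unit, the closest being Casp4 (1.16).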

How the data were processed

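Read counts per gene of 18 mRNA libraries were used. They are raw counts as the authors deposited them; per the file headers, featureCounts 1.5.1 counted reads over exons at strand setting 2 with GENCODE M13 gene models, and per the submitters' processing notes STAR, Trimmomatic and GRCm38 (mm10) were used. The labels and the series text name different library kits. Symbols were matched by gene ID. CPM are counts scaled by TMM-adjusted totals over all 18 libraries. Groups were compared with edgeR 4.0.16 (R 4.3.3; TMM, filterByExpr, quasi-likelihood test, Benjamini-Hochberg adjustment over all genes tested). Comparisons within a line used its 9 libraries (6 residual degrees of freedom), comparisons of lines all 18 (12). Errors are standard errors. Alternatives covered normalization, filters, DESeq2 1.42.0, thresholds, a replicate block and left-out libraries, and the fits were tested on simulated data. Same-numbered libraries did not deviate together (correlations from -0.15 to 0.07). The markers and gene lists were chosen with earlier results of these data known. Named were all 10 markers, Stat3, Lyz1, Itgb2, Csf1r, Csf1, Spi1 and Irf8, for each list and comparison at most 4 called genes of largest change with a mean of at least 1 CPM, and for each marker the genes of smallest distance over the 6 group means among those spanning at least 1 on the log2 scale (prior count 2). Of the other lists, mast cell, erythroid, megakaryocyte, B-lymphoid, T and natural killer, and stem and progenitor markers are given with the closing observations. Counting intervals and floors (3 counts) cover counting error only.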

Additional observations from a re-analysis of the deposited data

Results flagged for a closer look

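A test of the difference itself found that the change of several markers was not the same in the 2 lines (log2 change in HPCLSK minus that in HPC7, edgeR, adjusted over 13891 genes). The change of Stat3 differed as well, so line and Stat3 level cannot be told apart. For STAT3 against the empty vector the difference was 2.35 for Itgam, 3.59 for Adgre1, 5.04 for Mpeg1, 4.78 for Clec5a and 1.75 for Lyz2. It was -1.71 for Itgax and -4.65 for F13a1, which had risen in HPC7. For Y640F against the empty vector it was 2.5 for Cd68, 2.60 for Itgam, 1.73 for Itgax, 2.59 for Adgre1, 6.23 for Bst1, 3.15 for Mpeg1, 3.65 for Clec5a and 3.43 for Lyz2. The Itgax call for STAT3 (adjusted p = 0.048) was lost when any of the libraries compared was left out. The F13a1 value for STAT3 rests on 2, 1 and 1 counts in the HPC7 empty vector libraries. The Itgax value for Y640F was 0.73 without HPCLSK Y640F replicate 1. The values for Bst1 rest on 3 and 6 counts in the HPC7 groups, and the call was lost without HPC7 empty vector replicate 2 (5.30, adjusted p = 0.22) or replicate 3 (6.38, adjusted p = 0.054). The Mpeg1 calls were lost without HPC7 empty vector replicate 1 (the STAT3 difference was then 4.70 with adjusted p = 0.093, and the Y640F difference 2.80 with adjusted p = 0.095), and for STAT3 also without HPC7 STAT3 replicate 1 (4.56, adjusted p = 0.061) or replicate 3 (4.62, adjusted p = 0.057). Groups of 3 libraries were not tested for single libraries far from the rest.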

How the results depend on the processing

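Of 1389 values of single markers under alternatives, 1311 kept their direction and side of the threshold, 32 gained a call, 32 lost it and 14 changed sign. Requiring 5 CPM in 3 libraries left 3 markers to test in HPC7, and the calls there came to 1 for STAT3 against the empty vector (6 in the main analysis), 1 for Y640F against the empty vector (3) and 0 for Y640F against STAT3 (4, and 4 in DESeq2). In that last comparison the 3 tested markers (Cd68, Itgax and Lyz2) had adjusted p under 0.05 in edgeR and changes under the fold set. By the adjusted p alone the calls were 5 for Y640F against the empty vector and 7 for Y640F against STAT3 in HPC7, and 3 for STAT3 against the empty vector in HPCLSK (1). Tested against a fold of 1.5, the calls were 0 for STAT3 in HPCLSK (1 in edgeR's main test and in DESeq2, 4 at an unadjusted p under 0.05) and 5 for the line difference in the Y640F response (8). Leaving out single libraries gave 1 to 3 calls for STAT3 in HPCLSK, 9 to 10 for Y640F against the empty vector in HPCLSK, 5 to 6 for the line difference in the STAT3 response (7) and 2 to 4 for Y640F against the empty vector in HPC7. With the replicate block the calls were 6, 3 and 4 in the HPC7 comparisons, 1, 9 and 9 in those of HPCLSK, and 9 between the lines with the empty vector, where Bst1 was added and Itgax was at 0.48 (main value -0.23). The sign changes were otherwise of uncalled values: Cd68 with Y640F in HPC7 (-0.32 to 0 over left-out libraries), Cd68 in the line difference for STAT3 (-0.12 to 0.05), and Mrc1 in that for Y640F (-0.47 to 0.86 over left-out libraries, -0.03 in DESeq2, -0.01 without a filter). In the fit over all 18 libraries, Mpeg1 for Y640F against STAT3 in HPC7 lost its call (3.45, adjusted p = 0.16). The causes were not tested except where fewer genes were tested. Low counts limit the values of Bst1, Mrc1, Mpeg1 and, with the empty vector, F13a1 in HPC7.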

Other observations

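The summed level of 10 mast cell and basophil markers in HPCLSK was 4629 to 6358 CPM with the empty vector, 3504 to 3577 with STAT3 and 1159 to 1672 with Y640F. Ms4a2, the beta chain of the IgE receptor (-2.97 ± 0.26, adjusted p = 5.5e-06 in edgeR), the mast cell protease gene Cpa3 (-2.24 ± 0.14, adjusted p = 6.1e-07) and Hdc, which makes histamine (-1.81 ± 0.15, adjusted p = 3.5e-06), fell with Y640F, while the basophil protease gene Prss34 rose (4.4 ± 0.42, adjusted p = 9.8e-06). Over all genes tested in this comparison, 6.57% were called lower and 9.62% higher. Of 15 stem and progenitor markers 10 were not called, 3 fell, Hlf (-1.67 ± 0.16, adjusted p = 8e-06), Kit (-1.51 ± 0.09, adjusted p = 5.1e-07) and Cd34 (-1.25 ± 0.09, adjusted p = 1.2e-06), and 2 rose, among them Ly6a (3.68 ± 0.14, adjusted p = 4e-08). The one tested marker of T and natural killer cells, the granule gene Nkg7, fell by 3.28 on the log2 scale (adjusted p = 1.1e-06). Of 7 tested megakaryocyte markers 2 rose, Vwf (2.79 ± 0.29, adjusted p = 1.8e-05) and Selp (1.19 ± 0.32, adjusted p = 0.0086), and 4 fell, and of 5 tested erythroid and 2 tested B-lymphoid markers 2 and 1 fell.

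With Y640F in HPC7, where 4.54% of all tested genes were called higher and 3.64% lower, 0 of 11 tested erythroid markers fell and 7 rose, among them Epb42 (2.21 ± 0.17, adjusted p = 1.3e-07), a red cell membrane protein gene, and the transcription factor gene Gata1 (1.40 ± 0.14, adjusted p = 1.9e-06). With STAT3 in HPC7 (1.81% higher and 5.41% lower), 0 of 8 tested megakaryocyte markers fell and 3 rose, among them Vwf (1.78 ± 0.42, adjusted p = 0.0033) and Itga2b (1.03 ± 0.04, adjusted p = 1e-09), and Cd34 fell by 3.89 on the log2 scale (adjusted p = 2.1e-13).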
